A study of Mus musculus with 10 samples.

Results

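The genes described here are 36 mouse genes whose work is known from germ cells and meiosis, followed through the conversion of embryonic stem cells (ESC) into epiblast-like cells (EpiLC). They were chosen by gene symbol, all 36 had a row among the 22867 symbols of the tables, and their levels are given over all 10 RNA-seq libraries. The cells were 129SV mouse ESC lines: R1 (2 libraries), E14 (1), an Otx2-/- line (1) and Otx2-/- cells with a tetON Otx2 transgene, 1 library without and 1 with doxycycline (dox). ESC were kept without serum under LIF and 2 inhibitors, PD0325901 (0.8 µM) against MEK and CHIR99021 (3.3 µM) against GSK3, a state close to the pre-implantation epiblast. EpiLC, a culture model of the early post-implantation epiblast, were made in 48 h with bFGF and serum replacement from R1 (1 library without activin A and 1 with 20 ng/ml), E14 (1) and Otx2-/- cells (1). The labels do not tell whether the E14 and Otx2-/- EpiLC had activin A, and give neither dose nor duration of dox. Both transgenic libraries are labelled Otx2-/- in background as the Otx2-/- line is, and each line is a single line, so the genotype and the line cannot be told apart. Values are FPKM (fragment counts scaled to transcript length and to library size), so that levels can be set side by side between genes.

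Germ cells are set aside from the epiblast shortly after implantation, and EpiLC are the cells from which primordial germ cell-like cells are induced in culture. Genes of the later germline protect the genome from transposons through PIWI proteins and their small RNAs (piRNAs), and take chromosomes through meiosis with their own cohesin subunits, a synaptonemal complex that holds homologs together, and recombination enzymes. In other cells many of these genes are held silent by DNA methylation and by a repressor complex that contains E2F6, MGA and MAX.

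Depth differed between libraries by about 3 times, from about 6.6M fragments in E14 EpiLC to about 20.6M in R1 ESC replicate 2, so that a 2 kb transcript at 1 FPKM rested on about 13 to 41 fragments. Klf4, a naive pluripotency factor, was at 73.7 to 101 FPKM in the R1 and E14 ESC and at 0.840 to 1.09 in their EpiLC, and Fgf5, an epiblast growth factor, was at 0.566 to 0.809 and 28.4 to 35.8. Otx2 itself was at 3.96 to 9.09 FPKM in R1 and E14 ESC, 39.9 to 151 in their EpiLC, 7.85 and 15.8 in the Otx2-/- ESC and EpiLC, 45.8 without dox and 1059.3 with it. The labels do not tell which part of Otx2 was deleted, so its remaining reads do not check the genotype.

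Most of these germline genes were transcribed at low levels. Of the 36, 31 reached 1 FPKM in at least 1 library, 16 reached 10 FPKM, and 5 stayed under 1 FPKM everywhere. Those 5 were Spo11, which makes the DNA breaks of meiosis (at most 0.0808 FPKM), Mei1, needed for those breaks (at most 0.263), Asz1, a germ granule scaffold (at most 0.324), Sycp2, a lateral element of the synaptonemal complex (at most 0.498), and Tdrd9, a piRNA pathway helicase (at most 0.727). At the other end, Rpl10l, a retrogene copy of the ribosomal protein gene Rpl10, reached 131 FPKM, Syce2, a central element of the synaptonemal complex, 100.5, and Tex19.1, a germ cell protein that limits retrotransposons, 77.2. In bulk RNA, a few cells with much of a transcript and many cells with little of it cannot be told apart.

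**Figure D1:**
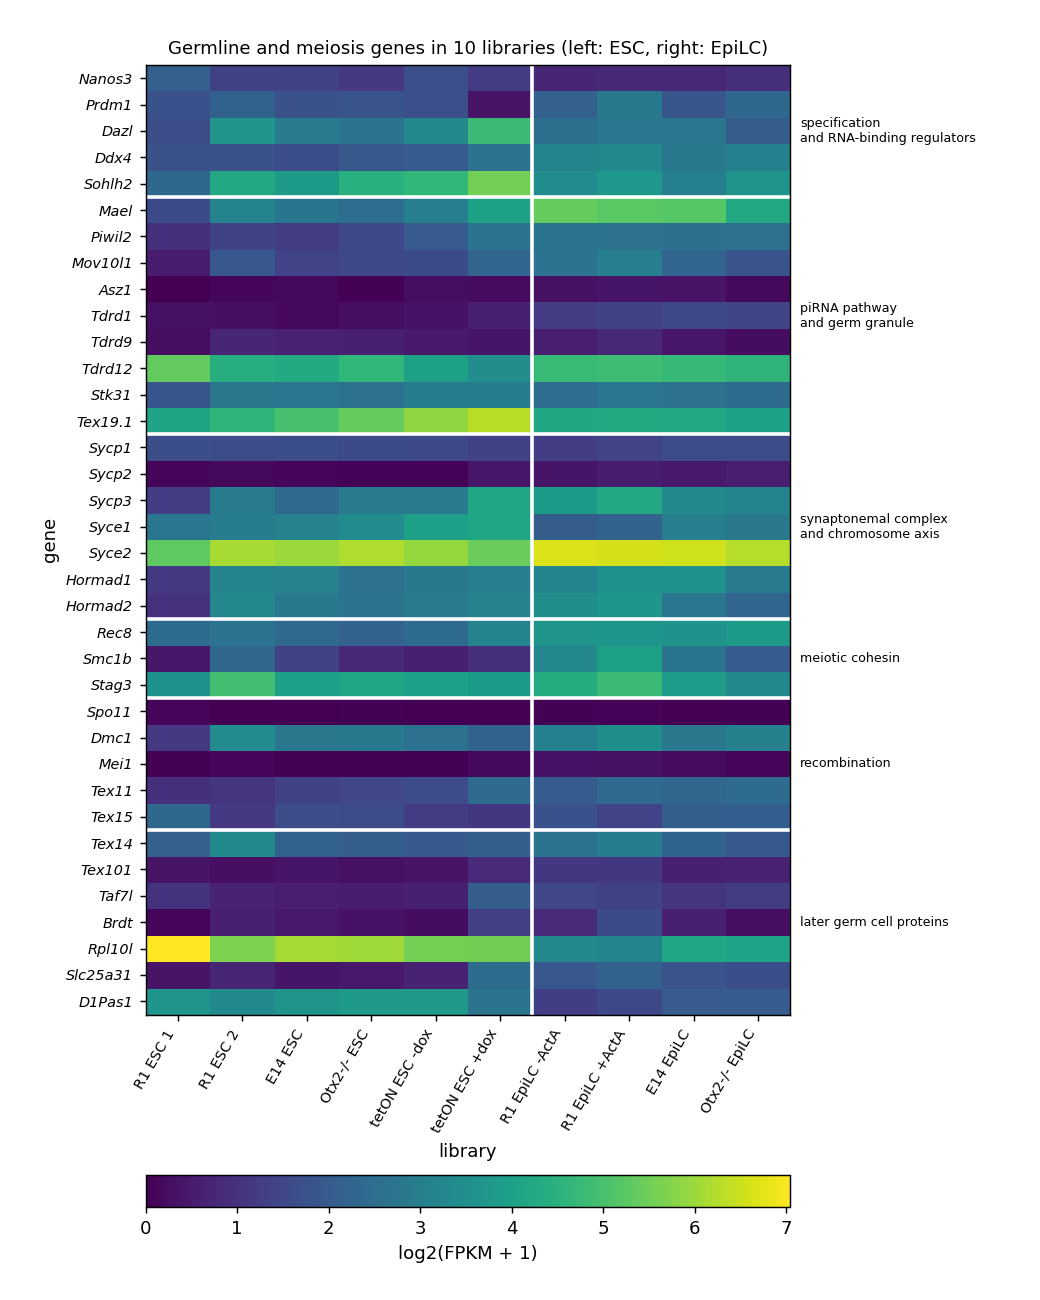
Levels of the 36 genes (rows, grouped by role) in the 10 libraries (columns, ESC left and EpiLC right of the white line), as log2(FPKM + 1). Rpl10l is the brightest cell, in R1 ESC replicate 1, and Spo11, Mei1 and Asz1 are dark throughout.

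Between R1 and E14 ESC and EpiLC, 3 libraries of each, 6 germline genes rose and 2 fell. The genes that rose were Mael, Slc25a31, Piwil2, Ddx4, Tex11 and Rec8, and those that fell were Rpl10l and D1Pas1. A limma fit to log2(FPKM + 1) with the line as a covariate tested the 28 genes that averaged at least 1 FPKM over the 6 libraries, at a Benjamini-Hochberg adjusted p of 0.05 over all 12244 genes tested. The 6 that rose are 21.4% of the 28, beside 9.73% of all genes tested, and the 2 that fell are 7.1%, beside 10.6%. The median log2 fold change was 0.47 over the 28 and -0.09 over all genes tested. In 12 of the 28 every EpiLC library lay above every ESC library, beside 19.7% of all genes, and in 3 every EpiLC library lay below, beside 25.5%. Of the 12, Slc25a31 and Taf7l averaged 0.420 and 0.737 FPKM in ESC, so they passed the filter of 1 FPKM through their EpiLC values. Of the 3, Nanos3 averaged 0.743 FPKM in EpiLC and passed it through its ESC values. The 8 genes under the level filter, Tdrd1, Tdrd9, Mei1, Spo11, Sycp2, Brdt, Asz1 and Tex101, had no test here. Without the level filter all 36 were tested, and 11 rose, beside 8.33% of all genes, and 2 fell, beside 6.55%. The added risers were Tdrd1, Sycp2, Mei1, Asz1 and Tex101. Of these, Sycp2, Mei1 and Asz1 stayed under 1 FPKM in every library, with log2 fold changes of 0.33, 0.22 and 0.28, and rest on few fragments.

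The calls moved with single libraries, over all genes as well. Without R1 ESC replicate 1, 13 genes rose and 5 fell of 29 tested, beside 15.4% and 18.1% of all genes; those added were Mov10l1, Smc1b, Syce2, Sycp3, Taf7l, Tdrd1 and Tdrd12 among the risers and Nanos3, Sohlh2 and Tex19.1 among the fallers. Without the R1 EpiLC library that had no activin A only D1Pas1 passed of 27 tested, beside 1.73% higher and 1.53% lower of all genes. Without the one that had it only Ddx4 and D1Pas1 did of 28, beside 2.65% and 2.27%. Without E14 ESC, and without E14 EpiLC, Mael and Tex11 no longer passed, which left 4 risers and 2 fallers each time. Of all genes, 4.07% rose and 2.81% fell without E14 ESC, and 3.61% and 2.72% did without E14 EpiLC.

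**Figure D2:**
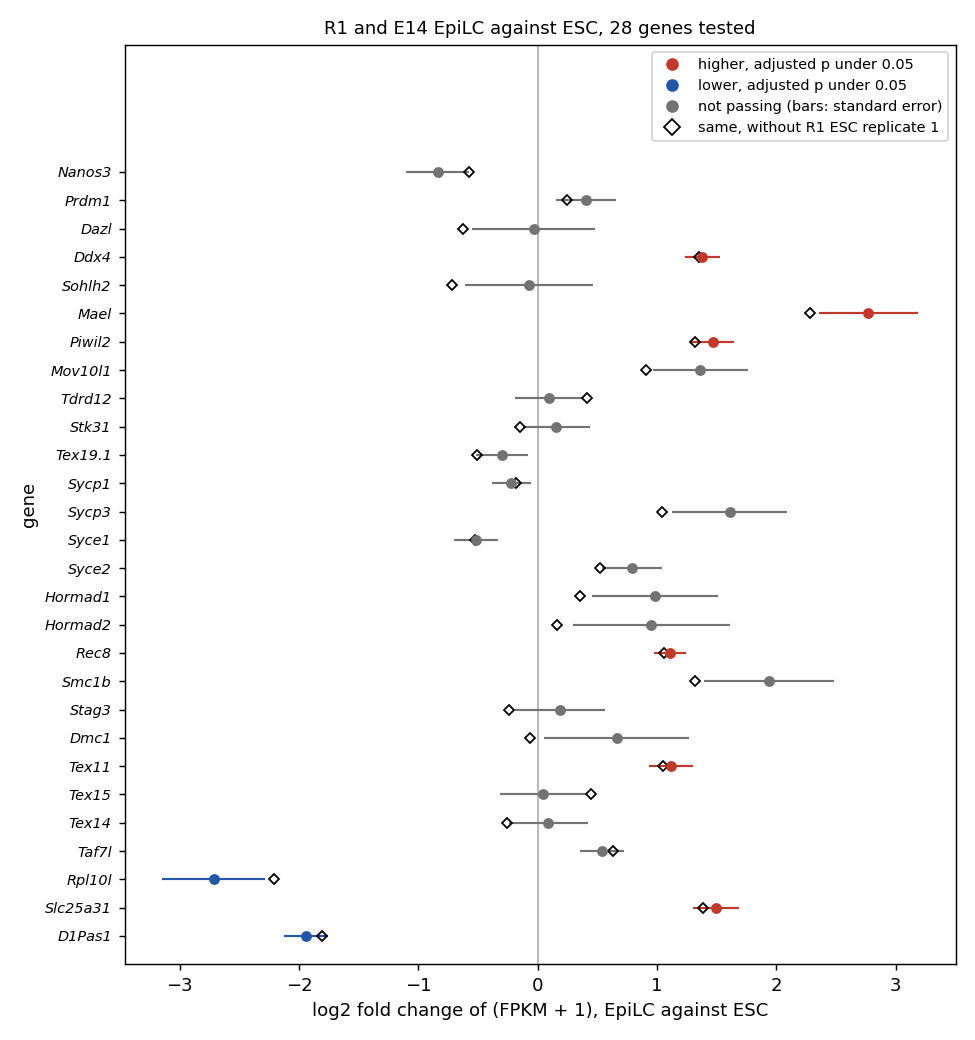
Log2 fold change of (FPKM + 1), R1 and E14 EpiLC against ESC, for the 28 genes tested; circles with standard error bars come from all 6 libraries, and diamonds leave out R1 ESC replicate 1. Red marks the 6 genes that rose and blue the 2 that fell; without that library Dmc1, Tex14, Stag3 and Stk31 cross 0.

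Promoter sequences are shown for the 6 genes with the largest tested changes that had an entry in RefSeq's promoter table, because this is where known repressors of germline genes bind. Each is the 250 bases before the start site on mouse build GRCm38.p6, written 5′ to 3′ on the gene's strand. Capitals mark TCCCGC or its reverse complement GCGGGA, the core bound by E2F6, and CACGTG, the E-box bound by MAX partners and by USF proteins. Smc1b and Sycp3 stand here for their size of change and did not pass the test with all 6 libraries.
Mael, chr1:166238745-166238994, minus strand: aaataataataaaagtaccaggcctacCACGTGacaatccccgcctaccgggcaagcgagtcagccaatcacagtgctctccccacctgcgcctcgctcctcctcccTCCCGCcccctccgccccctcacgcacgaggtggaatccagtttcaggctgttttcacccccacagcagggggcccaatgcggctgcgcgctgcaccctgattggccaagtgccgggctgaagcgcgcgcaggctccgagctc
Rpl10l, chr12:66284402-66284651, minus strand: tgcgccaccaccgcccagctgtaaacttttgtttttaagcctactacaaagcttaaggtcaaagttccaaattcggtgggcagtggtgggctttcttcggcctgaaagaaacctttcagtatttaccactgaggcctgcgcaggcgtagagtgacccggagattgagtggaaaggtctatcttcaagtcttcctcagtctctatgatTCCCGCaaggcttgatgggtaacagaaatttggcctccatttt
D1Pas1, chr1:186967166-186967415, plus strand: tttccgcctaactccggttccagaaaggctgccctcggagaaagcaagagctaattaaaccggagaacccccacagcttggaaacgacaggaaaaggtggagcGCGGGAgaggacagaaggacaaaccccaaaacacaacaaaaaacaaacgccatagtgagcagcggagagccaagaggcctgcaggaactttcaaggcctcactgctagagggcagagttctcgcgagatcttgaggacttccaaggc
Smc1b, chr15:85131958-85132207, minus strand: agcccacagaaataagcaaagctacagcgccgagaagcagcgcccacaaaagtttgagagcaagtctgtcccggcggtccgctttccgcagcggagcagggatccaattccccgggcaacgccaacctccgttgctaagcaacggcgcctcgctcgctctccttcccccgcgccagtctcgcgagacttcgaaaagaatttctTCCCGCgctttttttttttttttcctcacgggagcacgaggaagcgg
Sycp3, chr10:88459337-88459586, plus strand: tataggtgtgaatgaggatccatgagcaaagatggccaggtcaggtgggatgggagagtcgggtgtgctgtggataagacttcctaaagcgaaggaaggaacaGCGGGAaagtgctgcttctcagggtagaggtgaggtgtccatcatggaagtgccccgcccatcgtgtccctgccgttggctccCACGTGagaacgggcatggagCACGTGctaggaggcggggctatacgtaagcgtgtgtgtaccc
Slc25a31, chr3:40708621-40708870, plus strand: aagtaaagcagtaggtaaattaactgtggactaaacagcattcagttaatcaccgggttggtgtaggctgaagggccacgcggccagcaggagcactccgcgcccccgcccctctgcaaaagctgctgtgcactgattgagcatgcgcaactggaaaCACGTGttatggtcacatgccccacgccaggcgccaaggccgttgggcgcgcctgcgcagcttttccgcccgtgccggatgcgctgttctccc
In these windows the Mael promoter holds both motifs, the retrogenes Rpl10l and D1Pas1 and the cohesin gene Smc1b hold the E2F6 core alone, Slc25a31 the E-box alone, and Sycp3 an E2F6 core with a pair of E-boxes. A match of letters is a description of the sequence and shows no binding.

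Over the wider 300-base windows that RefSeq gives (250 bases before the start and 50 after), 32 of the 36 genes had an entry; Piwil2, Spo11, Tex11 and Tex15 had none. A TCCCGC or GCGGGA lay in 46.88% of the 32 (15 genes), beside 22.05% of all 27025 RefSeq genes. A CACGTG lay in 43.75% (14 genes), beside 8.09%, and both lay in 25% (8 genes), beside 2.65%. These promoters were also richer in CpG, with a median observed to expected CpG ratio of 0.71 beside 0.415. Among promoters with a ratio of at least 0.6, which leaves 23 of the germline genes, the E2F6 core was in 56.52%, beside 45.58% of all such genes, and the E-box in 56.52%, beside 12.68%. Within the 250 bases before the start alone, 22 germline genes reached that ratio. There the E2F6 core was in 40.91%, beside 39.95%, and the E-box in 59.09%, beside 10.85%. The share with the E2F6 core thus lay much closer to that of other CpG-rich promoters than the share with the E-box did. By outcome of the test, of the 4 risers with an entry all 4 held the E2F6 core and 3 the E-box, and of the 19 tested genes that did not pass 9 and 8 did. Both genes that fell held the E2F6 core and neither held the E-box, and of the 7 untested genes with an entry none held the core and 3 the E-box. These groups also differed in CpG ratio. It was 0.716 to 0.978 in the 4 risers and 0.643 to 0.707 in the 2 that fell. In the 19 that did not pass it was 0.131 to 1.08, and in the 7 untested genes 0.363 to 0.81. Whether the motifs differ by outcome at equal CpG ratio was not tested.

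**Figure D3:**
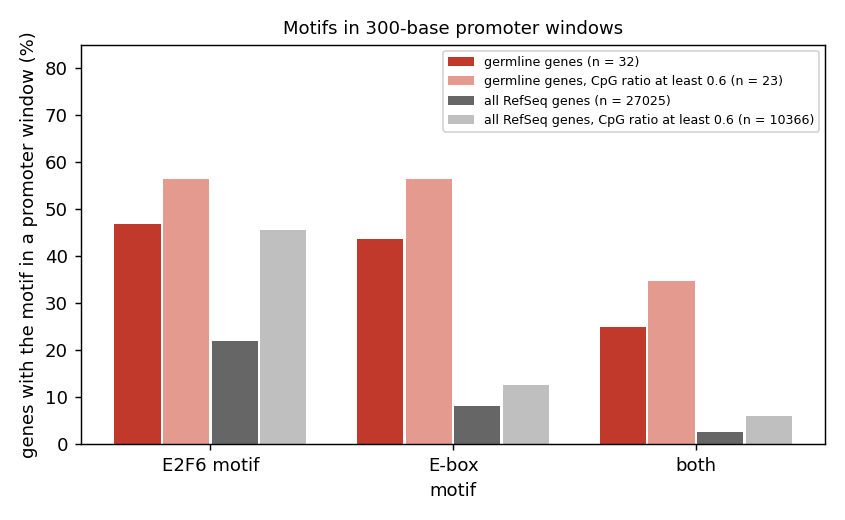
Share of genes (%) whose 300-base promoter window holds the E2F6 core, the E-box or both, for germline genes (red) and all RefSeq genes (grey), over all windows (dark) and those with a CpG ratio of at least 0.6 (light). The gap between germline genes and others is wider for the E-box than for the E2F6 core.

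Among regulators that set up germ cells or bind RNA in them, 1 of 5 tested genes rose and none fell. Of all genes tested, 9.73% rose and 10.6% fell. The median log2 fold change of the 5 was -0.03. Ddx4 (Vasa), the RNA helicase of the germ granule, on chromosome 13 at 113388541 to 113442518 (mm9), was at 2.38 and 2.35 FPKM in R1 ESC, 2.22 in E14 ESC, 8.10 and 8.70 in R1 EpiLC without and with activin A, and 6.27 in E14 EpiLC. Its ESC values were close together (2.32 ± 0.0874, SD, n = 3) and all EpiLC values stood well above them (7.69 ± 1.27, n = 3), and the log2 fold change was 1.38 (SE 0.14, limma adjusted p = 0.00511). Dazl, which licenses germ cells for meiosis, did not separate the states, with ESC at 2.14, 11.7 and 6.53 FPKM around EpiLC at 5.02, 5.78 and 5.86. Sohlh2, a bHLH factor of spermatogonia and oocytes, was likewise spread in ESC (4.08, 18 and 13.3 FPKM) and between 7.20 and 12.5 in EpiLC. Prdm1 (Blimp1), the repressor that starts primordial germ cell specification, was at 2.35 to 3.53 FPKM in ESC and 2.69 to 6.19 in EpiLC, highest with activin A. Nanos3, which keeps primordial germ cells alive, was below in every EpiLC library (0.701 to 0.772 FPKM against 1.58 to 3.49), with a log2 fold change of -0.84 and an adjusted p of 0.0824 in limma.

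In the piRNA pathway and germ granule, 2 of 6 tested genes rose and none fell, beside 9.73% and 10.6% of all genes. The median log2 fold change of the 6 was 0.76. Mael (Maelstrom), which silences transposons, on chromosome 1 at 168131516 to 168168875 (mm9), was at 2.02 and 7.84 FPKM in R1 ESC, 5.72 in E14 ESC, 40.4 and 37.0 in R1 EpiLC and 35.1 in E14 EpiLC. No other of the 36 genes that was tested rose by as much; its log2 fold change was 2.77 (SE 0.41, adjusted p = 0.0123 in limma). Piwil2 (Mili), the PIWI protein of primary piRNA production, on chromosome 14 at 70772287 to 70828901, was at 0.916, 1.63 and 1.38 FPKM in ESC and 5.53, 5.33 and 5.11 in EpiLC. The EpiLC libraries hardly differed from one another (5.32 ± 0.208, SD, n = 3), and the log2 fold change was 1.46 (SE 0.18, adjusted p = 0.00785 in limma). Mov10l1, the helicase that feeds RNA to Mili, lay above in every EpiLC library (3.95 to 7.07 FPKM against 0.476 to 2.78) but missed the threshold (log2 fold change 1.36, SE 0.40, limma adjusted p = 0.0679). Tdrd1, a Tudor protein that binds PIWI proteins, was at 0.114 to 0.252 FPKM in ESC and 1.32 to 1.87 in EpiLC and fell under the level filter. Tdrd12, a Tudor protein of secondary piRNA production, was already at 18.9 to 39.7 FPKM in ESC and was at 25.4 to 27.8 in EpiLC. Stk31, a Tudor-domain protein, overlapped between the states at 2.71 to 5.96 and 4.76 to 5.82 FPKM, as did Tex19.1 at 16.1 to 30.8 and 17.7 to 19.0. Tex19.1 shares 5.0% of its 36-base stretches with its copy Tex19.2.

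Of the synaptonemal complex and the chromosome axis, none of 6 tested genes passed in limma with all 6 libraries. Of all genes, 9.73% rose and 10.6% fell. The median log2 fold change of the 6 genes was 0.87. At an unadjusted p of 0.05 in limma 3 of them passed, beside 4509 of all 12244 genes tested. Of these 3, Sycp3 and Syce2 were higher in EpiLC and Syce1 was lower. Sycp3, the lateral element, was at 1.41 and 6.45 FPKM in R1 ESC, 4.32 in E14 ESC, 13.3 and 17.9 in R1 EpiLC and 9.06 in E14 EpiLC. The groups did not overlap, and the log2 fold change of 1.61 (SE 0.48) had an adjusted p of 0.0708 in limma. Reads of Sycp3 are uncertain, since its locus overlaps Chpt1 and 45.6% of its 36-base stretches also lie in Chpt1 transcripts; Chpt1 was at 4.66, 12.1 and 9.51 FPKM in ESC and 9.75, 9.93 and 6.63 in EpiLC, so it was low in R1 ESC replicate 1 with Sycp3 but not higher in EpiLC. Syce2 was at 38.4, 69.0 and 61.7 FPKM in ESC and 100.5, 94.5 and 90.9 in EpiLC, a log2 fold change of 0.79 (limma adjusted p = 0.0812). Its locus overlaps that of Gcdh, which was at 12.6 to 23 FPKM over the 10 libraries. Hormad1, a protein of the meiotic axis, was just above in EpiLC (8.03 to 11.4 FPKM against 1.30 to 7.91), with 32.8% of its 36-base stretches shared with other genes. Its relative Hormad2 overlapped, at 1.00 to 8.62 and 5.77 to 12.0 FPKM. Syce1, another central element, was at 3.23 and 3.69 FPKM in R1 EpiLC against 5.77 and 6.93 in R1 ESC, and at 7.06 in E14 EpiLC against 7.78 in E14 ESC, the same direction by less. Sycp1, the transverse filament, was at 2.12 to 2.23 FPKM in ESC and 1.41 to 2.14 in EpiLC.

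Of 3 meiotic cohesin subunits, all tested, 1 rose and none fell, beside 9.73% and 10.6% of all genes. Rec8, the meiotic kleisin, on chromosome 14 at 56237003 to 56244232 (mm9), was at 4.66, 5.48 and 4.38 FPKM in ESC and 11.5, 12.1 and 11.1 in EpiLC. Its groups were each tight (4.84 ± 0.572 and 11.5 ± 0.498, SD, n = 3 each), and it rose by 1.11 on the log2 scale (SE 0.13, limma adjusted p = 0.00704). Smc1b, the meiotic SMC subunit, was at 0.377, 3.98 and 1.63 FPKM in ESC and 8.59, 15.0 and 5.61 in EpiLC, a larger difference (1.94, SE 0.54) with a wider spread that missed the threshold (limma adjusted p = 0.0601). Stag3, the meiotic STAG subunit, overlapped between the states, at 10.9 to 29.1 FPKM in ESC and 13.6 to 26.8 in EpiLC. Of 5 mitotic cohesin genes all were tested, 1 rose and none fell, beside the same 9.73% and 10.6%. Stag2, a mitotic STAG subunit, rose by 1.06 on the log2 scale (SE 0.16, limma adjusted p = 0.0132), with 18.6 ± 3.37 FPKM in ESC and 39.5 ± 3.46 in EpiLC (SD, n = 3 each).

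Among recombination genes 1 of 3 tested rose and none fell, beside 9.73% and 10.6% of all genes. Tex11, an X-linked protein of crossover formation at 98033987 to 98254978 (mm9), was at 0.924, 1.11 and 1.63 FPKM in ESC and 3.10, 4.28 and 4.05 in EpiLC. All 3 EpiLC libraries lay above all 3 ESC libraries, and the rise was 1.12 on the log2 scale (SE 0.18, limma adjusted p = 0.0149). Dmc1, the meiotic recombinase, was at 1.25, 9.51 and 6.06 FPKM in ESC and 7.23, 10.4 and 6.09 in EpiLC, and Tex15, of recombination and retrotransposon silencing, at 1.25 to 4.11 and 1.67 to 3.39. The ESC and EpiLC ranges of both overlapped.

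The proteins of later germ cells held both directions, with 1 riser and 2 fallers of 5 tested, beside 9.73% and 10.6% of all genes. Slc25a31 (Ant4), the ADP/ATP carrier of germ cells, on chromosome 3 at 40512793 to 40530016 (mm9), was at 0.295, 0.650 and 0.316 FPKM in ESC and 2.77, 3.63 and 2.58 in EpiLC. Every EpiLC library was above every ESC library, and the log2 fold change was 1.49 (SE 0.19, limma adjusted p = 0.00896). Its ESC values were all under 1 FPKM, so it passed the level filter through its EpiLC values. Without that filter its limma adjusted p was 0.00944. Taf7l, the X-linked relative of the TFIID subunit TAF7, was at 0.517 to 1.06 FPKM in ESC and 1.13 to 1.80 in EpiLC (limma adjusted p = 0.0985). Tex14, of the bridges between germ cells, overlapped at 3.46 to 9.27 and 3.79 to 6.93 FPKM. Tex101, a surface protein of male germ cells, and Brdt, a testis bromodomain protein, were under the level filter at 0.228 to 1.21 and 0.0847 to 1.98 FPKM over these 6 libraries.

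Both genes that fell are retrogenes, copies of X-linked genes that serve germ cells. Rpl10l, on chromosome 12 at 67384366 to 67385388 (mm9), was at 131 and 49.9 FPKM in R1 ESC, 66.7 in E14 ESC, 8.97 and 8.06 in R1 EpiLC and 16.9 in E14 EpiLC. Each EpiLC library was far below each ESC library, and the log2 fold change was -2.71 (SE 0.43, limma adjusted p = 0.0144). Its parent gene Rpl10 was at 1376 ± 272 FPKM in ESC and 1396 ± 39.0 in EpiLC (SD, n = 3 each), with a difference of 0.04 on the log2 scale (SE 0.20). Exact 36-base stretches of Rpl10l are shared with the predicted gene Gm14460 (18.1%) and none with Rpl10; reads with mismatches could still be placed at either gene. D1Pas1, a testis relative of the RNA helicase gene Ddx3x, on chromosome 1 at 188791295 to 188794506, was at 11.8, 9.25 and 11.5 FPKM in ESC and 1.45, 1.92 and 3.05 in EpiLC. Its log2 fold change was -1.94 (SE 0.19, limma adjusted p = 0.00450), and it passed with each single library left out. Ddx3x was at 252 ± 85 and 196 ± 40.2 FPKM, a log2 fold change of -0.33 (SE 0.29).

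**Figure D4:**
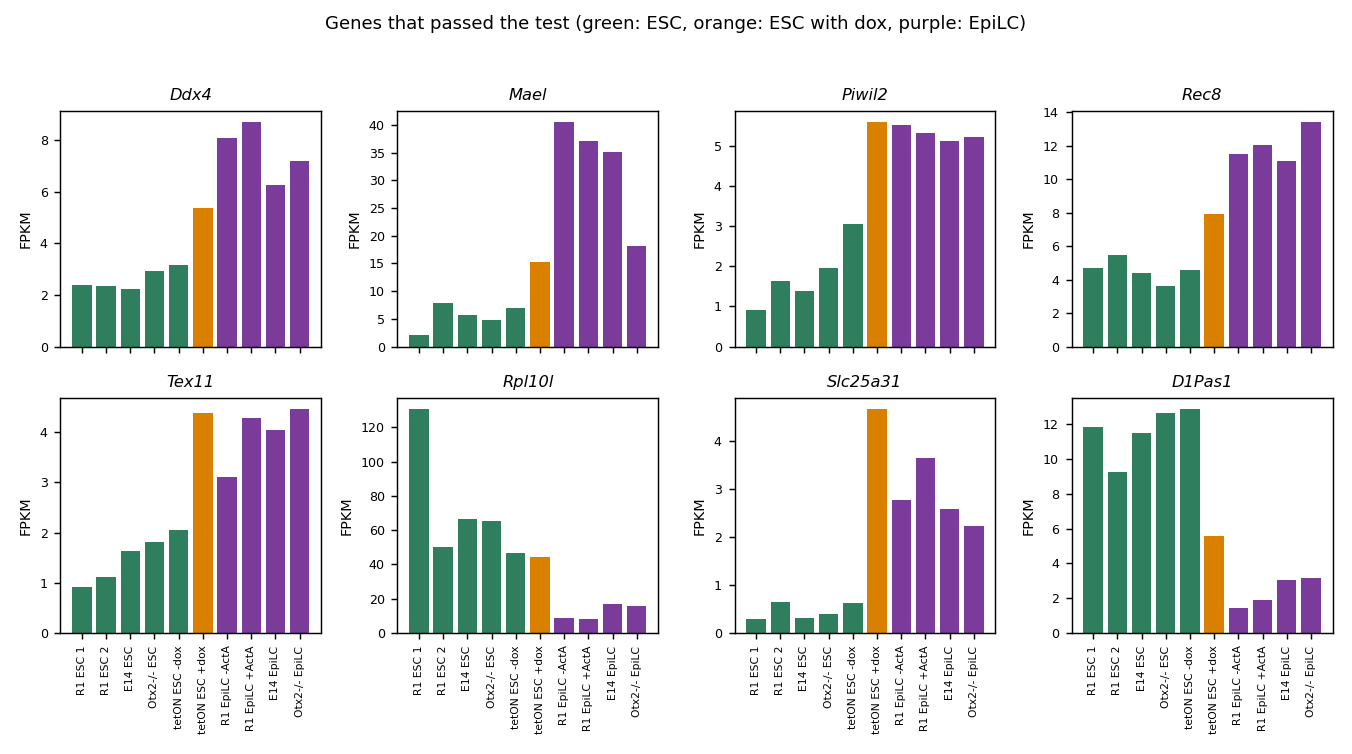
FPKM of the 8 genes that passed the test, in all 10 libraries; each panel has its own axis from 0. The 6 risers are higher in all 4 EpiLC libraries (purple) than in the 5 ESC libraries without dox (green), D1Pas1 and Rpl10l are lower, and in the dox library (orange) each riser exceeds the ESC libraries without dox.

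The first R1 ESC replicate was often the lowest ESC library for these genes, a pattern looked for after the values had been seen. In 8 of 26 germline genes that averaged at least 1 FPKM over the 5 ESC libraries without dox, its level was at most 0.5 times that of every other one, beside 5.83% of 11911 genes. They were Dazl, Sohlh2, Mael, Mov10l1, Sycp3, Hormad1, Hormad2 and Dmc1. Dmc1, for example, was at 1.25 FPKM there, and at 9.51 in R1 ESC replicate 2, 6.06 in E14, 6.24 in Otx2-/- and 5.22 in tetON ESC without dox. It was the lowest of the 5 in 16 of the 26, beside 28.8% of genes, and at least 2 times every other library in 0 of 26, beside 2.12%. Set directly against replicate 2, with 2-fold and at least 5 FPKM in 1 of the pair as the rule, 9 germline genes were higher in replicate 2 and 1 was lower, of 17 that reached 5 FPKM, beside 5.42% and 6.09% of all genes. Tex14, at 9.27 FPKM in replicate 2 and between 2.83 and 6.93 in all others, and Stag3, at 29.1 against 9.19 to 26.8, were instead high in replicate 2. The gene lower in replicate 2 was Rpl10l.

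Beside these values, R1 ESC replicate 1 had the highest level of 13 of 18 genes for repressors of the germline, whose summed level was 1450 FPKM there and 1040 to 1150 in the other 4 ESC libraries without dox. L3mbtl2, a member of the E2F6 complex, was at 82.8 FPKM against 46.1 to 56.1, its partner Max at 71.5 against 38.0 to 46.0, and Tfdp1, the dimer partner of E2F factors, at 151 against 51.5 to 70.5. E2f6 itself, at 9.89 FPKM against 8.89 to 13.1, lay within the range of the others, and Pcgf6, another member of the complex, was lowest there, at 25.3 against 29.6 to 33.0. Over all genes this library was the highest of the 5 for 44.0%, and its depth was about 10.9M fragments. The part of these differences in the low germline values was not tested.

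**Figure D5:**
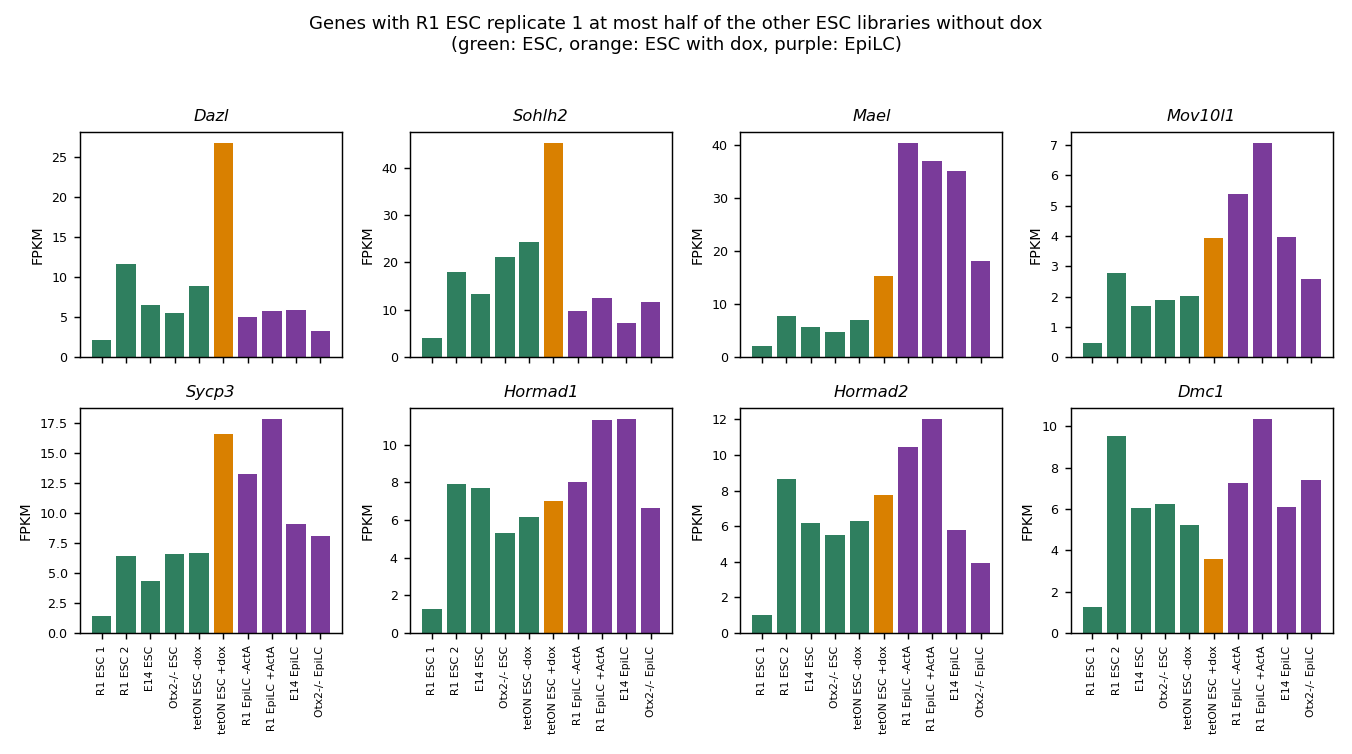
FPKM in all 10 libraries of the 8 genes whose level in R1 ESC replicate 1 was at most 0.5 times that of each other ESC library without dox; each panel has its own axis from 0. For Dazl and Sohlh2 the dox library (orange) is the highest, and for Mael, Mov10l1 and Sycp3 an R1 EpiLC library is.

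In the Otx2-/- cells no germline gene passed in limma, in ESC, in EpiLC, or for the difference in response to the EpiLC medium. Of 28 tested, 0 were called each time, beside 0.0896% higher and 0.0489% lower of all genes in ESC, 0.139% and 0.0244% in EpiLC, and 0.179% and 0.0978% for the response. At an unadjusted p of 0.05 the counts were 1, 0 and 0, the one being Tex19.1 in ESC. Over all 12271 genes tested they were 132, 441 and 194. A single Otx2-/- library per state was set against 3 of R1 and E14, and is assumed to vary as they do, so the intervals are wide. The median log2 difference of the 28 was 0.09 in ESC, -0.12 in EpiLC and -0.31 for the response, beside -0.03, 0.01 and 0.03 over all genes. The last of these moved to -0.06 without R1 ESC replicate 1.

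Within the Otx2-/- line, set against itself with 1 library per state and no test, 4 of 18 germline genes that reached 5 FPKM were at least 2-fold higher in Otx2-/- EpiLC than in Otx2-/- ESC, beside 6.99% of all genes, and 3 were lower, beside 8.47%. Those higher were Ddx4 (2.93 and 7.21 FPKM), Mael (4.81 and 18.2), Piwil2 (1.96 and 5.23) and Rec8 (3.60 and 13.4). D1Pas1 (12.6 and 3.15 FPKM), Rpl10l (65.2 and 15.9) and Tex19.1 (40.8 and 15.4) were lower. In E14 alone, 5 of 19 were higher, beside 6.89%, namely the same 4 and Smc1b, and 2 were lower, beside 9.24%, D1Pas1 and Rpl10l. Mael, set against the other lines, was at 18.2 FPKM in Otx2-/- EpiLC against 35.1 to 40.4 in the R1 and E14 EpiLC; the log2 difference was -1.01 (SE 0.55, limma adjusted p = 0.96). Smc1b was at 3.12 FPKM there against 5.61 to 15.0, a log2 difference of -1.29 (SE 0.76, limma adjusted p = 0.96). Tex19.1 started higher in Otx2-/- ESC (40.8 FPKM against 16.1 to 30.8) and ended lower (15.4 against 17.7 to 19.0), with a log2 difference in response of -1.05 (SE 0.46, limma adjusted p = 0.997).

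Activin A in R1 EpiLC took no germline gene past the 2-fold rule. Of 20 that reached 5 FPKM, 0 differed 2-fold, beside 1.07% of all genes in each direction, and the median log2 ratio was 0.22 beside -0.01. Smc1b (8.59 and 15.0 FPKM) and Prdm1 (3.48 and 6.19) had the largest ratios among them. With 1 library each there is no replicate check.

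Dox-driven Otx2 in Otx2-/- ESC was accompanied by higher levels of several germline genes without the EpiLC medium, in 1 library against 1 with no replicate check. Of 18 that reached 5 FPKM, 3 were at least 2-fold higher with dox, beside 6.42% of all genes, and 1 was lower, beside 5.71%. Dazl was at 8.86 FPKM without and 26.8 with dox, Sycp3 at 6.66 and 16.6, Mael at 7.01 and 15.3, and D1Pas1 at 12.9 and 5.57. For Sycp3 the overlapping Chpt1 moved as well, from 12.9 to 20.9 FPKM. Below the 5 FPKM floor, Slc25a31 went from 0.627 to 4.66 FPKM, Taf7l from 0.550 to 3.25 and Brdt from 0.178 to 1.52, and Prdm1 from 2.32 down to 0.293. All 6 genes that rose in R1 and E14 EpiLC had a higher value with dox than without, by log2 ratios of 0.62 (Ddx4) to 1.80 (Slc25a31), beside 45.3% of all genes tested and 69.1% of the 1191 genes called higher in EpiLC. Of the 6, Mael alone met the 2-fold and 5 FPKM rule. Rpl10l did not follow them, at 46.6 FPKM without and 44.5 with dox, whereas D1Pas1 did, with a log2 ratio of -1.08. Dazl, Sohlh2 (24.3 and 45.2 FPKM) and Tex19.1 (58.0 and 77.2) reached their highest level of all 10 libraries with dox, beside 3.24 to 5.86, 7.20 to 12.5 and 15.4 to 19.0 FPKM in the 4 EpiLC libraries.

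Other genes moved between these same libraries. Between the transgenic line without dox and Otx2-/- ESC, 0 of 15 germline genes were past 2-fold, beside 1.34% higher and 1.36% lower of all genes. Otx2 itself did differ, at 45.8 FPKM without dox and 7.85 in Otx2-/- ESC. The dox pair thus sets 1059.3 FPKM of Otx2 against a level already above the 39.9 FPKM of E14 EpiLC. With dox, the summed level of 6 markers of the 2-cell-like state was 81.8 FPKM against 45.2 without it, 35.0 in Otx2-/- ESC and 4.25 to 9.93 in R1 and E14 ESC. Zscan4c, Zscan4d and Zscan4f were at 11.7, 17.7 and 11.8 FPKM without dox and 23.3, 29.5 and 26.5 with it. Zfp352 was lower with dox, at 4.07 without and 2.48 with it, and Tcstv1 and Tcstv3 were listed at 0 everywhere. Dppa3 (Stella), of primordial germ cells and early embryos, went from 5.55 to 68.1 FPKM. Among repressors, E2f6 was at 13.1 FPKM without and 30.7 with dox, Mga at 23.3 and 12.8, and Setdb1 at 57.3 and 29.5. The 18 repressor genes summed to 1150 and 923 FPKM. Of DNA methylation genes, Dnmt3b was at 48.5 without and 157 with dox and Dnmt3a at 13.4 and 48.9. Dnmt3l (265 and 131), Uhrf1 (271 and 154) and Dnmt1 (83.7 and 63.7) were lower with it. The 9 genes for DNA methylation and its removal summed to 766 and 637 FPKM. The part of these changes in the germline values was not tested.

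Further genes of the same pathways, listed beside the 36, gave the following counts in R1 and E14 EpiLC against ESC, to be read beside 9.73% higher and 10.6% lower of all genes, or 15.4% and 18.1% without R1 ESC replicate 1. Of 14 other piRNA genes, 9 were tested, 2 rose and none fell: Tdrd5, a Tudor protein (0.426 ± 0.205 and 2.77 ± 0.345 FPKM, SD, n = 3 each), with a log2 fold change of 1.41, and Tdrkh, which helps trim piRNAs, with 1.19. Without R1 ESC replicate 1, 4 of them rose and none fell. Of 20 other meiosis genes, 14 were tested, 4 rose and 1 fell. Syce3, a central element of the synaptonemal complex, went from 1.21 ± 0.598 to 9.42 ± 1.63 FPKM (SD, n = 3 each) and rose by 2.26 on the log2 scale (SE 0.18, limma adjusted p = 0.00315). Meioc, which sustains meiotic prophase, rose by 1.67, Tex12, another central element, by 1.46 and Mnd1, a cofactor of strand exchange, by 0.93, while the mismatch repair gene Mlh3 fell by 0.77. Without R1 ESC replicate 1, 5 rose and 1 fell. Tdrd5, Tdrkh and Tex12 averaged under 1 FPKM in ESC, so they passed the level filter through their EpiLC values.

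Of 12 further genes that specify or sustain germ cells, 8 were tested, 1 rose and 2 fell, beside 9.73% and 10.6% of all genes. Prdm14, a regulator of primordial germ cells and naive ESC, was at 19.4 ± 4.48 FPKM in ESC and 1.64 ± 1.11 in EpiLC (SD, n = 3 each), Kit, a receptor that germ cells need, at 55.6 ± 26.1 and 6.63 ± 0.734, and Dppa3 at 2.6 ± 1.29 and 6.42 ± 1.79. Their log2 fold changes were -3.00, -2.77 and 1.07 (limma adjusted p = 0.00591, 0.0122 and 0.03). Without R1 ESC replicate 1, 2 rose and 3 fell, beside 15.4% and 18.1% of all genes.

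Of 18 genes for repressors of the germline, all tested, 1 rose and 3 fell, beside 9.73% and 10.6% of all genes, and 2 rose and 3 fell without R1 ESC replicate 1. Setdb1, a histone methyltransferase, went from 53.2 ± 4.40 to 29.8 ± 1.27 FPKM, Rnf2, a ubiquitin ligase of Polycomb complexes, from 58.0 ± 14.6 to 31.9 ± 1.46, and Wdr5 from 147 ± 12.4 to 85.9 ± 2.57 (SD, n = 3 each), while Yaf2, a partner of RNF2, rose by 0.71 on the log2 scale. The core genes E2f6, Mga, Max and L3mbtl2 did not pass, with log2 fold changes of 0.43, -0.02, -0.27 and -0.34. Of 9 genes for DNA methylation and its removal, all tested, 2 rose and 2 fell, beside the same 9.73% and 10.6%. Dnmt3a went from 10.6 ± 1.06 to 80.5 ± 20.2 FPKM and Dnmt3b from 48.5 ± 25.4 to 245 ± 88.9 (SD, n = 3 each), both makers of new methylation, while Tet2, which removes it, fell by 1.72 and Uhrf1, which maintains it, by 0.68. Their part in the germline values was not tested.

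Markers of other cells were at low levels and some moved with the groups. Fibroblast markers, 7 genes, summed to 1.10 to 1.76 FPKM in R1 and E14 ESC and 3.38 to 8.19 in their EpiLC. Dcn, a matrix proteoglycan, was at 0.0306 ± 0.0302 FPKM in these ESC and 1.92 ± 1.42 in the EpiLC, and the collagen genes Col1a2 and Col1a1 at 0.0731 ± 0.083 and 1.06 ± 0.663, and 0.15 ± 0.0378 and 0.407 ± 0.173 (SD, n = 3 each). Of the 7, Thy1 alone passed the level filter and was not called (log2 fold change 0.64, limma adjusted p = 0.0705). Without R1 ESC replicate 1, 2 of the 7 rose and 0 fell, beside 15.4% and 18.1% of all genes. Primitive endoderm markers, 6 genes, summed to 1.46 to 3.24 FPKM in ESC and 1.05 to 1.87 in EpiLC, and trophoblast markers, 6 genes, to 2.93 to 6.98 and 3.39 to 8.99. Both sums were highest with dox, at 5.57 FPKM against 2.3 without it for primitive endoderm and 10.3 against 4.39 for trophoblast. Of the primitive endoderm markers Gata4 was at 3.08 FPKM with and 1.00 without dox, and Sox7 alone was lower with it (0.302 and 0.660). Of the trophoblast markers Ascl2 was at 6.18 FPKM with and 2.47 without dox, and Hand1 at 3.12 and 0.303. Gata3 (0.781 and 1.34), Cdx2 (0 and 0.0894) and Elf5 (0.187 and 0.188) were lower with dox. The part of these cell markers in the germline values was not tested.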

How the data were processed

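The series holds RNA-seq of 10 libraries from mouse cell cultures. Per the labels' protocols, polyA RNA was purified and reverse-transcribed from random hexamers, and no strand step is described. The authors deposited FPKM for each gene, from TopHat and Cufflinks on mm9 per the submitters' processing notes, which give neither versions nor annotation. Each table held 23112 entries, of which 17 exact repeats were dropped and 228 sharing a symbol were summed, which left 22867 symbols. Gene coordinates are mm9, counted from 1, and promoter coordinates are GRCm38.p6 from RefSeq. Depth was approximated from the smallest values of olfactory receptor genes and is rough.

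FPKM are not counts, so limma 3.58.1 in R 4.3.3 (eBayes with trend, two-sided, tested on simulated data) was fitted to log2(FPKM + 1), with a filter at a mean of 1 FPKM and Benjamini-Hochberg adjustment over all genes tested. Fold changes on this scale understate those of low genes. The protocols call the cultures of each state independent replicates; R1 EpiLC with and without activin A were taken as one state. Pairs of single libraries have no test: genes reaching 5 FPKM were counted at 2-fold on log2(FPKM + 1). Shared stretches of 36 bases were sought in GENCODE M21 transcripts; the read length is not stated in the labels. The alternatives were a pseudocount of 0.1, other filters, scalings and covariates, and leaving out each library.

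The 36 genes and the other lists were chosen with earlier results of these data known. Every one of the 36 was described; of each other list, up to 4 genes that passed were named, the largest changes first, and genes named beyond that were chosen after their values were seen.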

Additional observations from a re-analysis of the deposited data

How the results depend on the processing

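With 6 libraries and about 13 to 41 fragments per 1 FPKM of a 2 kb transcript, values under 1 FPKM rest on few fragments. The 8 calls in EpiLC against ESC stayed 8 with a pseudocount of 0.1 and with median-ratio or quantile scaling, with the same genes. With no filter 13 of 36 were called, 11 higher and 2 lower, beside 8.33% and 6.55% of all genes. Without the line covariate 11 of 28 were, 9 higher and 2 lower, beside 10.7% and 12.6%. Leaving out 1 library gave 1 to 18. The shares of all genes at these ends were 1.73% higher and 1.53% lower, and 15.4% and 18.1%. The Otx2-/- comparisons gave 0 under every alternative run. In pairs, a 1.5-fold rule gave 2 of 20 genes for activin A (0 at 2-fold), beside 1.91% higher and 1.94% lower of all genes. For dox it gave 8 of 18 (4 at 2-fold), 7 higher and 1 lower, beside 12.3% and 12.8%. For the transgenic line without dox against Otx2-/- ESC it gave 2 of 15 (0 at 2-fold), beside 4.07% and 3.04%. A floor of 1 FPKM gave 8 of 28 for dox, 6 higher and 2 lower, beside 7.13% and 5.36%.

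The sign of 8 genes that did not pass turned. Dazl (-0.03) became 0.0109 with a pseudocount of 0.1, and ranged from -0.624 to 0.527 with 1 library left out, 0.000561 without R1 EpiLC without activin A and 0.017 without either E14 library. Under the same omissions Sohlh2 (-0.07) ranged from -0.722 to 0.366 (0.291 without either E14 library), Tdrd12 (0.09) from 0.412 to -0.139 (-0.064 without either E14 library) and Tex15 (0.05) from 0.445 to -0.23 (-0.164 without either E14 library), with -0.0575 under quantile scaling. Without R1 ESC replicate 1, Stk31 became -0.145, Stag3 -0.237, Dmc1 -0.0664 and Tex14 -0.256, and their highest values, without replicate 2, were 0.373, 0.525, 1.2 and 0.432. The cause was not tested. No paired analysis was possible because replicate numbers are given for R1 ESC alone.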

Other observations

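Low genes outside the 36, chosen after their values were seen, also differed between states without reaching the level filter. Piwil4 (Miwi2), the PIWI protein that directs DNA methylation to transposons in fetal male germ cells, was listed at 0.152 ± 0.118 FPKM in R1 and E14 ESC and 1.61 ± 0.469 in their EpiLC (SD, n = 3 each). In Otx2-/- cells it was at 0.0943 FPKM in ESC and 3.81 in EpiLC, the highest value of the 10 libraries. With dox it was at 0.0252 FPKM and without at 0.170, so it did not move with Slc25a31 or Mael there. Figla, an oocyte bHLH factor that works with its partners on E-boxes, was at 0.0563 to 0.0724 FPKM in R1 and E14 ESC and 0.492 to 0.974 in their EpiLC, and at 0.14 in Otx2-/- EpiLC.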
